A study of Homo sapiens with 3 samples.

Results

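The long arm end of chromosome 4 held 10919 of the 385953 HMGA1 peaks called over input DNA (2.83%) and 9973 of the 263033 peaks called over histone H3 (3.79%). Its members were all peaks of the 2 deposited lists on chromosome 4 (hg19) with a summit at or beyond 155000001, up to the last peak-covered base at 191037712, a segment of 36.04 Mb. The comparison stretch, the 55 Mb of chromosome 4 just before it, held 11530 and 7416 peaks. Chromatin immunoprecipitation sequencing was done in DAMI cells, a leukaemic line with megakaryocytic features that the labels place under MPN/AML (myeloproliferative neoplasm and acute myeloid leukaemia). The 3 libraries were an HMGA1 ChIP, an H3 ChIP and input DNA without antibody, from cells grown in RPMI medium with fetal bovine serum and with no treatment named. Each was 1 library of 1 cell line, so no replicate error exists, no test was made and every interval covers counting error only. The input and H3 lists share all HMGA1 reads. The segment was chosen from values of these same libraries, a raised control level at its peaks, so its control level, HMGA1 reads and peak density are descriptions.

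HMGA1 is an architectural chromatin protein whose AT-hooks bind the minor groove of AT-rich DNA. Gene-poor stretches of human chromosomes are often AT-rich and late-replicating, whereas gene-rich stretches are often GC-rich. Input DNA shows how much of a region enters a library without any antibody, and an H3 ChIP tracks nucleosomes. Genes known from this chromosome end include the fibrinogen genes FGA, FGB and FGG, which encode a clotting protein, PDGFC and VEGFC, which encode growth factors, HAND2, a developmental transcription factor, IRF2 and TLR3 of innate immunity, and FAT1, an adhesion protein. In the gene order of the GRCh38.p14 table, FSTL5, which encodes a follistatin-like secreted protein, lies between RAPGEF2 and NAF1. No gene was placed on the hg19 peaks, and peaks are named by coordinate.

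Read levels were recovered from the deposited folds and p-values. The HMGA1 value at a summit is a number of overlapping reads. The control level is the local input or H3 coverage, and it is never below a genome-wide floor of 2.78 reads for input and 2.19 for H3, each on the scale of its own list. Control levels are therefore given as multiples of the floor, and true levels under the floor cannot be seen. No member lay at the floor in either list, whereas 36.4% of all input-list peaks and 42.9% of all H3-list peaks did.

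The rise into the segment could be described by 1 edge or by several stairs. A single break from 100 Mb to the end fell at 153.6 Mb in both controls and took up 90.02% of the variance between bins of 100 kb for input and 91.1% for H3. With 2 breaks, the input control split at 136.3 and 155.4 Mb, which took up 93.9%, and adding the break at 153.5 Mb brought this to 94.96%. The 3 input breaks are used as stairs here. From 100 to 136.3 Mb the median control was at the floor in both lists, with 17 HMGA1 reads at the median input-list summit. From 136.3 to 153.5 Mb the median input control was 1.26 times the floor, the H3 control 1.08 times, and the HMGA1 summits held 21 reads. From 153.5 to 155.4 Mb the levels were 1.60 and 1.45 times the floor with 25 reads, and beyond 155.4 Mb they were 2.24 and 1.97 times with 33 reads.

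The last step was placed at 155.4 Mb by the input control, by the H3 control and by the HMGA1 reads of either list, when 1 break was sought in 20 Mb around the segment's start. These placements are not independent, as the lists share the HMGA1 reads and a called summit must exceed its local control. The step lies 0.4 Mb inside the segment, so the segment's first peaks belong to the stair below. In the first 0.25 Mb of the segment the median summit had 22.5 HMGA1 reads at 1.43 times the input floor. Between 155.50 and 155.75 Mb it was 2.24 times with 29.5 reads, and from 156.00 to 156.25 Mb it was 2.15 times with 36 reads. The input-list peaks next to the rule's limit were not higher inside than outside. The last outside, from 154974566 to 154974935, had 34 reads at 2.24 times the floor, and the one before it 26 reads at 2.24 times. The first inside, from 155002354 to 155002639, had 29 reads at 1.60 times, and the next 14 reads at 1.28 times. In the H3 list the last 2 outside had 34 and 26 reads at 2.28 and 1.37 times the floor, and the first 2 inside 29 and 47 reads at 1.53 and 1.196 times.

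The first and the second step were less certain than the last. The second, at 153.5 Mb, was found in no list with 2 breaks, and with 3 breaks it was found over input but not over H3, where the third break of the control lay at 190.5 Mb. The first was found with 2, 3 and 4 breaks, but its place varied: the H3 control put it at 139.5 Mb and the input control at 136.3 Mb, and the H3 control was at or close to its floor up to there. At 136.00 to 136.25 Mb 73.3% of input-list peaks lay at the input floor, and at 136.25 to 136.50 Mb 14.05% did. HMGA1 reads in the input list stepped at 136.1 Mb. With 4 breaks the second step was at 153.5 Mb (input) and 153.6 Mb (H3), the last at 155.4 Mb in both, and a further rise appeared at 190.5 Mb in both.

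**Figure D1:**
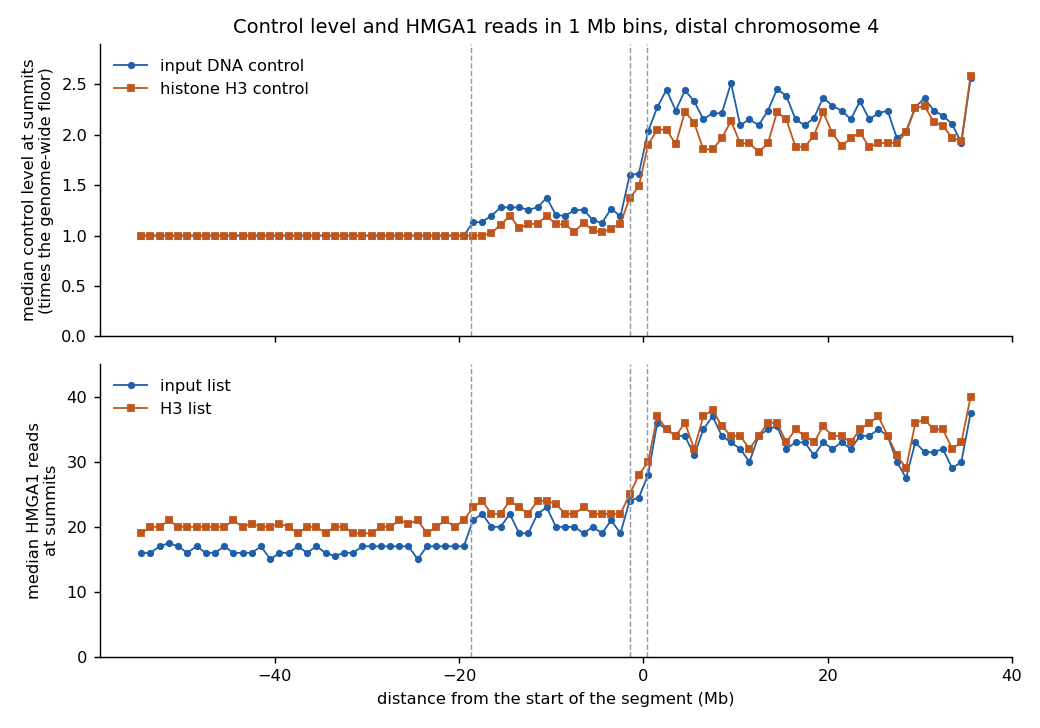
Median control level at HMGA1 summits as a multiple of the genome-wide floor (top) and median HMGA1 reads at summits (bottom) in 1 Mb bins, against the distance in Mb from the start of the segment; dashed lines mark the 3 breaks of the input control. Every segment bin lies above every comparison bin in both panels, and the levels rise before the segment starts.

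All 36 full 1 Mb bins of the segment had a higher median control level and more HMGA1 reads at the median summit than any of the 55 comparison bins, in both lists. Within the segment these levels varied from bin to bin. Bin medians of the input control ran from 1.92 to 2.56 times the floor, those of the H3 control from 1.83 to 2.58 times, and those of the HMGA1 reads in the input list from 27.5 to 37.5. Both controls varied together across the 36 bins (Spearman's rho 0.716), a description only, as both are read at peaks of the same HMGA1 library.

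Peak density did not separate the segment from the comparison stretch as the control levels did. The segment as a whole held 303 peaks per Mb over input (95% Poisson interval 297 to 309) against 209.6 (206 to 214) in the comparison stretch, a ratio of 1.45. Over H3 it held 277 per Mb (271 to 282) against 135 (132 to 138), a ratio of 2.05. Bins ranged from 124 to 480 peaks over input inside the segment and from 92 to 427 in the comparison stretch, so the 2 ranges overlapped almost fully. Only 3 of the 36 segment bins held more input-list peaks than the densest comparison bin, which lies at 136 to 137 Mb on the second stair. In the H3 list 10 of the 36 did.

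Density fell at 182 Mb, while the control levels of the parts before and after it stayed close. The single break that best split peaks per 100 kb inside the segment was at that position in both lists. Up to there the input list had 342 peaks per Mb and the H3 list 317, and from there to the end 187 and 156. The median input control was 2.24 times the floor before and 2.18 times after, and the H3 control 1.97 and 2.07 times. Right at the break the input control did dip, from 2.24 times at 181 to 182 Mb to 1.96 times at 182 to 183 Mb. HMGA1 reads in the input list went from 34 to 30 there, and the H3 control from 1.92 to 1.91 times. At 184 to 185 Mb the input control was 2.27 times the floor. Beyond 182 Mb the input-list density was thus 0.89 times that of the comparison stretch, which has the lower read levels, and the H3-list density was 1.16 times. The sparsest full bin was 185 to 186 Mb with 124 peaks over input and 102 over H3. The longest stretches of the segment between neighbouring peaks were inside that bin, from 185076075 to 185140487 (64.4 kb) over input and from 185076054 to 185146721 (70.7 kb) over H3.

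**Figure D2:**
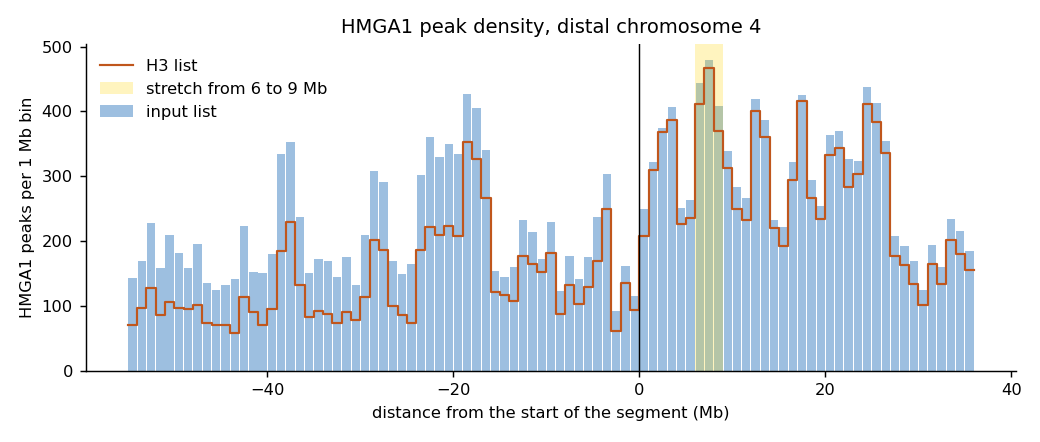
HMGA1 peaks per 1 Mb bin in the input list (bars) and the H3 list (line) against the distance in Mb from the start of the segment (vertical line); the shaded stretch runs from 161000001 to 164000000. Segment bins range from 124 to 480 input-list peaks, with the maximum in the shaded stretch and a fall beyond 182 Mb.

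How much of the density ratio goes with the higher read levels was gauged by dividing HMGA1 reads and control at each member by 2.24 (input) or 1.97 (H3), the ratio of median control levels. Of the input-list members 94.5% still reached the weakest p-value called in the comparison stretch, which gave a ratio of 1.37, and 93.8% of H3-list members did, a ratio of 1.93. With the 5th percentile of the comparison p-values as limit in both stretches, 73.1% and 67.0% were kept and the ratios were 1.11 and 1.45. The density ratio therefore depends on where weak peaks are cut. The calculation rescales summits only and leaves out the sampling of reads and the width a call needs. The comparison median control lies at the floor, so the true ratio of control levels is unknown. HMGA1 reads at the median summit differed 1.83-fold over input and 1.67-fold over H3, less than the divisors. The division therefore does not match HMGA1 reads, and the ratios are not corrected for depth.

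The stretch from 161000001 to 164000000 was the densest of the segment. It held 1332 peaks over input, or 444 per Mb (420 to 468), and 1249 over H3, or 416 per Mb. The rest of the segment held 290.2 and 264 per Mb, and the ratios were 1.53 (1.44 to 1.62) and 1.58 (1.48 to 1.67). Its middle bin, 162 to 163 Mb, held 480 peaks over input and 467 over H3, the highest of all segment bins in both lists. In steps of 0.5 Mb the input-list density rose from 282 per Mb just before the stretch to 500 at 161.5 to 162.0 Mb and 534 at 162.5 to 163.0 Mb, and fell to 346 in the last 0.5 Mb of the stretch and 298 just after it. The next 0.5 Mb held 380 per Mb, and the 0.5 Mb up to 158.5 Mb held 428, so the density of single bins in the stretch was also reached nearby. Its gene content was not checked here.

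Peaks in this stretch were also wider and stood higher over both controls, at a control level a little below the rest. Over input the median width was 408 bp, against 336 bp in the rest, and over H3 it was 397 bp, against 332 bp. Over input the fold had a median of 4.92, against 4.44 in the rest, and over H3 one of 5.54, against 4.95. The input control was 2.195 times the floor against 2.24 times, and the H3 control 1.89 against 1.99 times. HMGA1 summits held 35 reads against 33 in the input list. Peaks covered 23.2% of its bases over input, against 12.4% of the rest. At matched HMGA1 reads its input-list peaks remained wider from 30 reads up. At 40 to 59 reads the median was 552 bp (95% interval 523 to 588) against 445 bp (430 to 457). At 60 reads or more it was 762 bp (668 to 869) against 571 bp (551 to 601). In the classes from 15 to 29 reads the intervals met. At 20 to 24 reads the medians were 253 bp (238 to 274) and 235 bp (230 to 239). At 25 to 29 reads they were 290 bp (272 to 312) and 270 bp (265 to 275). Peaks of 1 kb or more made up 8.63% of its input-list peaks, against 4.99% of all input-list members and 2% of the whole input list. Over H3 these shares were 8.65%, 4.73% and 1.42%.

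The same trend ran through the whole segment. Across its 36 bins the number of input-list peaks had a Spearman correlation of 0.902 with their median width, 0.744 with their median fold and -0.117 with the input control level. In the H3 list these were 0.921, 0.767 and -0.674. Dense bins thus had wider and higher peaks at a lower H3 level. Bins are parts of single libraries, and density, width and fold are read from the same peaks. The comparison bins fell along the same width trend, as the densest of them, 136 to 137 Mb, had a median width of 373 bp at 427 peaks over input.

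**Figure D3:**
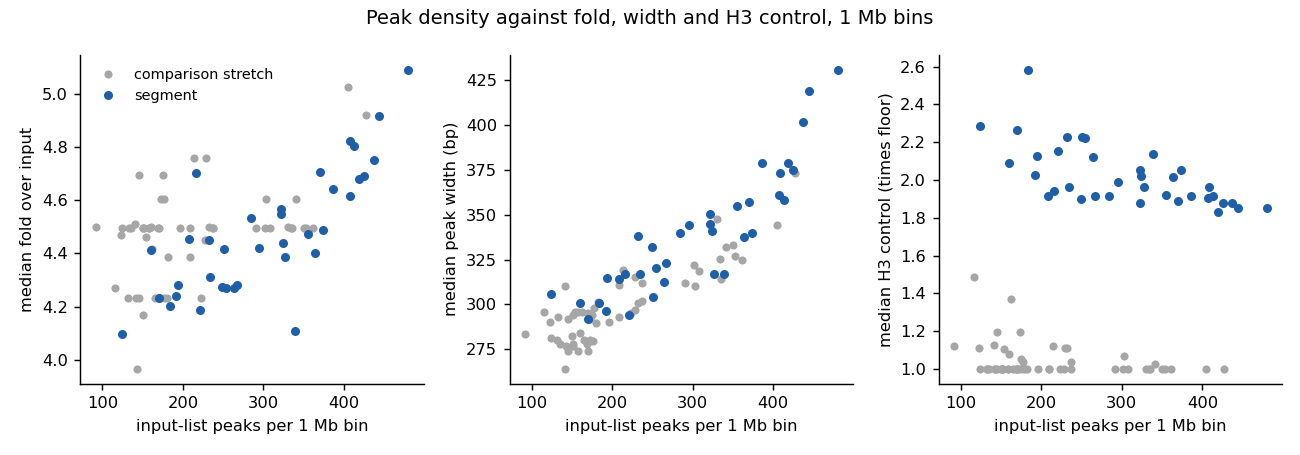
Median fold over input, median width of input-list peaks in bp and median H3 control (times its floor) against the number of input-list peaks, for the 36 segment bins (blue) and the 55 comparison bins (grey) of 1 Mb. Width rises with density along a common band in both stretches, while the H3 control of the segment bins falls with density and stays above all comparison bins.

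Width depended on what was held equal. Over all members the median was 341 bp over input, against 304 bp in the comparison stretch, and 339 bp over H3, against 282 bp. At equal HMGA1 reads members were narrower in the middle classes, 15 to 39 reads in the input list and 20 to 39 in the H3 list. At 25 to 29 reads the median was 272 bp (267 to 277) in the segment and 391 bp (380 to 407) in the comparison stretch over input, and 258 bp (254 to 262) and 317 bp (310 to 326) over H3. At 40 to 59 reads, which held 25.7% of input-list members, the intervals overlapped, with 459 bp (447 to 470) and 468 bp (420 to 505) over input and 435 bp (422 to 446) and 421.5 bp (385 to 450) over H3. They also overlapped at 15 to 19 reads over H3, with 243 bp (230 to 258) and 234 bp (231 to 238). At equal fold members were wider in every class over input and in all but the lowest over H3. For a fold of 6 to 8 over input the median was 465 bp (451 to 485) against 400 bp (389 to 415), and over H3 it was 434 bp (421 to 450) against 331 bp (323 to 340). For a fold of 3 to 4 over H3 it was 244 bp (240 to 248) against 243 bp (235 to 251). A member at equal reads has the lower fold, and a member at equal fold has more reads, 47 against 26 at the median input-list summit of that class.

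**Figure D4:**
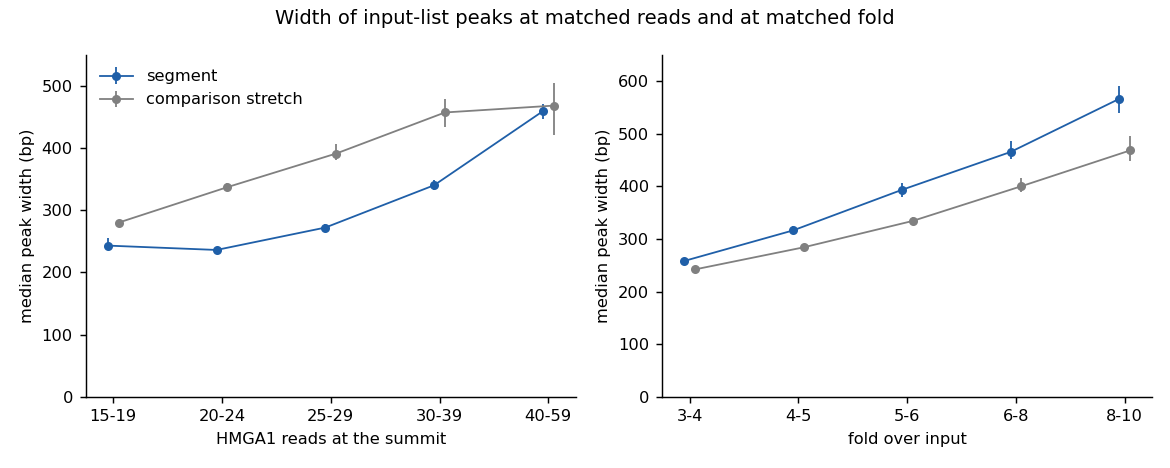
Median width in bp of input-list peaks in classes of HMGA1 reads at the summit (left) and of fold over input (right), for the segment (blue) and the comparison stretch (grey); bars are 95% order-statistic intervals. Members are narrower at 15 to 39 reads and wider in every fold class.

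Members were closely spaced, less often within 1 kb and slightly more often within 2 kb than points strewn at their mean density would be. Density varied along the segment, and its part in these differences was not tested. A neighbouring summit lay within 1 kb for 37.7% of input-list members (36.8 to 38.6), against 30.03% in the comparison stretch and 27.7% in the whole list. Over H3 the shares were 36.3%, 23.8% and 23.8%. Points strewn at the segment's mean density with no minimum distance would give 45.5% over input and 42.5% over H3. Within 500 bp the share was 4.13% over input, where such points would give 26.1%, and within 2 kb it was 73.5%, where they would give 70.2%. Over H3 the share within 2 kb was 71.5%, where they would give 66.9%. Points strewn at the comparison stretch's mean density would give 34.2% within 1 kb over input and 23.6% over H3. Within 1 kb the observed share over input was 0.83 times the share so given in the segment and 0.88 times in the comparison stretch. Over H3 these were 0.85 and 1.01 times. Within 2 kb they were 1.05 and 1.09 times over input, and 1.07 and 1.22 times over H3. Relative to density, close neighbours were thus less frequent in the segment. Separate peaks cannot overlap, so summits of peaks with a median width of 341 bp are seldom closer than that. The tightest group over input had 12 summits within 10 kb, from 161804275 to 161814706 in the dense stretch. Its summits held 23 to 49 HMGA1 reads with folds of 2.22 to 8.12, so it was built of modest peaks. The tightest H3-list group, with 11 summits from 161805452 to 161815171, was at the same place.

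The median fold of members was near that of the comparison stretch, but their upper tail was longer. Over input the median was 4.51 in the segment and 4.50 in the comparison stretch, and over H3 it was 5.02 and 5.25. A fold of at least 10 was reached by 372 input-list members, 3.41% (3.08 to 3.76), against 1.31% (1.12 to 1.53) in the comparison stretch and 2.08% of the whole list. Over H3 it was reached by 545 members, 5.46% (5.04 to 5.93), against 1.79% (1.51 to 2.12) and 2.86%. On the first stair, where 78.7% of input-list peaks lay at the floor, the share was 0.63%, and on the second stair, where 10.98% did, it was 2.68% (2.204 to 3.25). Folds at the floor are understated, and the 1 read added to both terms of a fold lowers it most where reads are few, so the tail moves with read level and its part in the difference was not tested. The lower end differed too: a fold of 4 was reached by 72.9% of H3-list members, against 87.0% in the comparison stretch.

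**Figure D5:**
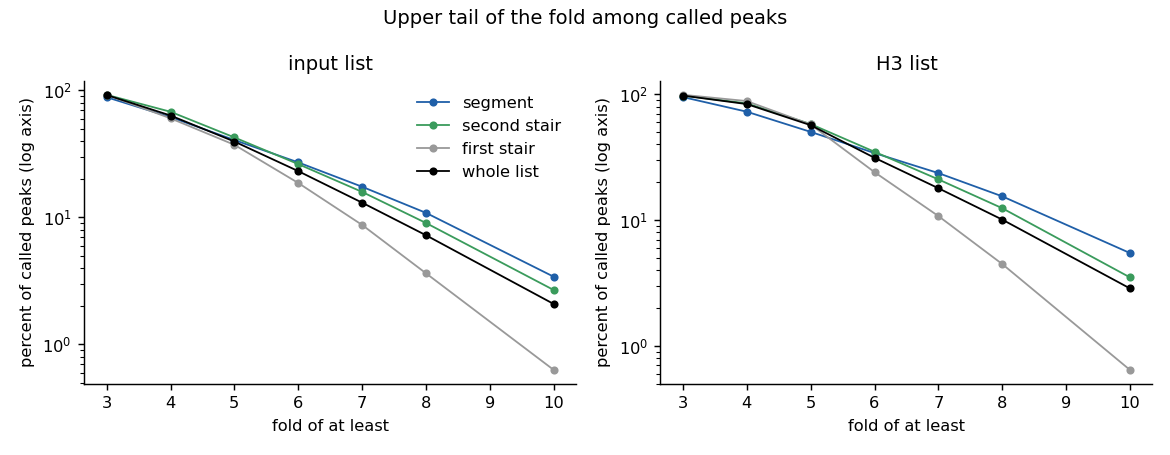
Percent of called peaks that reach a given fold (log axis) over input (left) and over H3 (right), for the segment, the second stair (136.3 to 153.5 Mb), the first stair (100 to 136.3 Mb) and the whole list. At a fold of 10 the segment is highest, with 3.41% over input and 5.46% over H3, and the first stair lowest, with 0.63% and 0.64%.

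Most members were called over both controls. Of the input-list members 87.2% (86.5 to 87.8) overlapped an H3-list peak, against 62.0% in the comparison stretch and 65.8% of the whole list. At equal HMGA1 reads the order turned, but such members were weaker over input. At 20 to 24 reads their median fold was 3.29, against 5.55 in the comparison stretch. In that class 60.1% (57.8 to 62.3) of members had an H3-list counterpart, against 96.6% (95.8 to 97.3) in the comparison stretch. The 1402 input-list members without one were low, with 22 HMGA1 reads and a fold of 3.25 at the median, whereas the median was 35 reads and the fold 4.83 for the 9517 that had a counterpart. Of the H3-list members 96.2% overlapped an input-list peak, below the 98.9% of the comparison stretch and the 98.3% of the whole list. The 374 that did not had 21 reads and a width of 210 bp at the median. At 4301 summits placed identically in the 2 lists, HMGA1 reads were equal in all 4301, and the median H3 control was 0.888 times the input control relative to the floors. On the second stair this ratio was 0.888 as well. There 10.98% of input-list and 35.8% of H3-list peaks lay at the floor, so the 2 ratios are not like for like.

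Members were frequent among the peaks ranked highest by q-value and by HMGA1 reads. They made up 20.7% of the 1000 highest-q peaks of the input list, against 2.83% of that whole list. In the H3 list these shares were 23.8% and 3.79%. Summits with 60 HMGA1 reads or more numbered 990 among input-list members (9.07%), against 0.03% of the comparison stretch and 1.02% of the whole list, and 9.92% of H3-list members against 1.5% of that list. A q-value rises with reads at equal fold, and read levels chose the segment, so these ranks are a description.

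The member with the highest q-value in both lists lay from 184967314 to 184968068, in the sparse part beyond 182 Mb. Its summit held 138 HMGA1 reads at 3.52 times the input floor and 2.22 times the H3 floor. It was 12.9-fold over input and 18.7-fold over H3. The site with the highest fold over input, from 161698409 to 161699609 in the dense stretch, had 112 HMGA1 reads. Its levels were 2.03 times the input floor and 1.65 times the H3 floor, with folds of 17.0 and 19.3. The next by fold were from 165039136 to 165041325, a peak of 2190 bp with 118 reads (16.5-fold over input, 17.7-fold over H3), and from 164420284 to 164421378 with 105 reads (16.4-fold and 14.7-fold). These sites stood high over both controls.

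The highest fold over H3 belonged to the peak from 167584679 to 167586785. It had 99 HMGA1 reads, an H3 level of 1.14 times the floor and a fold of 22.6, against 15.8-fold over input at 1.92 times the floor. The peak from 180115707 to 180117605 was similar, with 100 reads, 1.37 times the H3 floor and 19.96-fold over H3, against 14.4-fold over input. At these summits the H3 level was under the segment's median of 1.97 times the floor. Both peaks were picked by their fold over H3, which favours a low H3 level. The low level is therefore a description of the choice, and whether it exceeds counting error was not tested. Of the 10 highest-q members of each list 8 were shared. The remaining shared sites started, in the input list, at 190594415 (156 reads, 9.23-fold) and 157976448 (103 reads, 13.9-fold). Those of the input list alone started at 157926930 (115 reads, 12.9-fold) and 161456362 (98 reads, 15.6-fold), and those of the H3 list alone at 156702249 (113 reads, 17.3-fold) and 171975083 (95 reads, 17.3-fold).

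The widest member over input ran from 165242897 to 165246377, 3481 bp with 60 reads at its summit and a fold of 7.51. The widest over H3 ran from 161599535 to 161602609, 3075 bp with 58 reads. At that summit the fold was 9.33 over H3 and 4.70 over input, as the input control there was 4.16 times the floor and the H3 control 1.83 times.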

How the data were processed

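The authors called peaks with MACS2 on hg19, per the submitters' processing notes; version, aligner and filters were not given in the sources used here. Per peak, the authors deposited interval, summit, the fold (a ratio of HMGA1 to control), −log10 p-value, −log10 q-value and a whole-number score. Peak names carry a prefix other than HMGA1, and the ChIP was taken from the names of the deposited lists. HMGA1 reads and control levels at summits were computed from the deposited fold and p-value (fold as reads plus 1 over control plus 1, Poisson tail), for H3 after multiplying HMGA1 reads by 0.787. All 385953 and 263033 peaks fitted within 0.001 on the −log10 scale; for H3, 259928 had a single solution, and otherwise the closest was used. The recovery and the break search were tested on simulated data. Total depth is unknown.

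Peaks were assigned by summit; overlap meant at least 1 bp. Shares have Wilson, densities exact Poisson, density ratios exact binomial and medians order-statistic 95% intervals. Breaks minimised squared deviations of log2 medians in 100 kb bins with at least 3 peaks. The named peaks are the 10 highest by q-value and 3 highest by fold in each list, the widest, the tightest group, and the densest and sparsest bins. The members, lists and stretches were chosen with earlier results of these data known. Gene names and order came from the RefSeq table of GRCh38.p14, where 28 of 28 listed genes matched; none was placed on hg19, and no sequence is printed. Software was matplotlib 3.10.9, scipy 1.17.1, pandas 2.3.3 and numpy 2.4.6 under Python 3.11.15.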

Additional observations from a re-analysis of the deposited data

How the results depend on the processing

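Leaving out a replicate was not possible with 1 library per antibody. No paired analysis was possible because the result comes from no test and the groups share no replicate numbers. The ratio of segment to comparison density was 1.45 over input and 2.05 over H3. In the same order it was 1.86 and 2.22 for −log10 q-values from 5 up. With all of chromosome 4 before the segment as reference it was 1.63 and 2.30. With reads and control divided by the control ratio it was 1.37 and 1.93 at the weakest p-value. Alternatives chosen after the data were seen gave 1.11 and 1.45 with that division at the 5th percentile of p-values. They gave 1.85 and 2.46 with a fold of at least 6. For the part beyond the density break they gave 0.89 and 1.16, which reversed the input-list direction. Over H3 alone the density ratio also moved to 1.72 with a fold of at least 4 and 1.65 between the last and the second stair. There was no peak-free stretch of at least 1 Mb, so leaving such stretches out changed nothing. The median input control was 2.23 times the floor from bin medians. The H3 step moved to 155.25 Mb with 250 kb bins. Neighbours lay within 500 bp for 4.13% and 4.001% of members and within 2 kb for 73.5% and 71.5%. Median width was 366 and 364 bp for −log10 q-values from 5 up. The dense stretch's ratio was 1.71 and 1.72 with a fold of at least 4. The share of input-list members overlapped over H3 was 83.2% with 50% of both peaks shared, 86.0% with summits within 200 bp and 85.9% for −log10 q-values from 5 up in both lists. For each of these shifts the cause was not tested.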

Other observations

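Near the chromosome end the controls were higher again over short stretches. Bins of 50 kb at 1.5 times the segment's median control or more, at least 2 in a row, were found from 190500001 to 190700000 and from 190800001 to 190900000 in the input list, and nowhere else in the segment. In the H3 list the first began at 190450001 and the second was the same. In the first stretch the median input control was 4.80 times the floor against 2.45 times in the 300 kb on either side, and the H3 control 4.71 against 2.31 times. HMGA1 summits there held 59 reads against 39 in the input list, at a median fold of 4.14. The 156-read peak from 190594415 to 190595306, among the 10 highest-q members of both lists, lies in it. The second stretch stood little or not at all above its flanks; each stretch lies wholly or in part within the flanks of the other. Its input control was 5.12 times the floor against 4.48 times, its H3 control 3.96 against 4.64 times, and its HMGA1 summits held 52 reads, against 50 by the input list's flanks and 55 by those of the H3 list. Mappability of these stretches was not analysed here.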
